A study of Mus musculus with 4 samples.

Results

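Plasma cells of the mouse liver were taken from 4 droplet libraries of sorted CD45+ leukocytes, the blood-derived cells of the organ. A cell barcode was a member when it held at least 200 genes, under 10% mitochondrial unique molecular identifiers (UMIs, each a tag for 1 captured RNA molecule), at least 10 Jchain UMIs, at least 2 Xbp1 UMIs, at least 1 Mzb1 UMI and no Siglech UMI, a gene of plasmacytoid dendritic cells. The rule found 171 plasma cells among 20039 kept barcodes: 58 at 0 h and 112 at 12 h in the IL-22-negative libraries, and 1 at 0 h and 0 at 12 h in the IL-22-positive ones. The cells were thus chosen by their UMIs of these 4 genes, whose levels support nothing below.

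All animals carried the IL-22sgBFP reporter allele, which marks cells that make the cytokine IL-22 with a blue fluorescent protein. The 0 h libraries came from mice before injection, and the 12 h libraries from mice given 300000 MC38 cells, a mouse colon carcinoma line, into the spleen in 250 µl of saline, a route that carries cells to the liver. From each time point, reporter-negative and reporter-positive leukocytes were sorted into separate libraries. Age, sex and the number of mice behind a library are not given in the labels. Each group was 1 library, so no test was possible: intervals below are exact 95% intervals for counting error and do not hold the spread between mice. Those of gene and list ratios treat each UMI as independent, so they do not hold the spread between cells either. No library followed injection of saline alone, so the time, the injection and the cancer cells cannot be told apart.

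Plasma cells are the end stage of the B cell lineage and secrete antibody. Xbp1 encodes the transcription factor that enlarges their endoplasmic reticulum (ER), Mzb1 an ER protein that helps assemble antibody, and Jchain the peptide that links IgA into dimers and IgM into pentamers. IgA is the antibody of mucosal surfaces, and its plasma cells are mostly formed in tissues of the gut, which drains to the liver. IgG serves blood and tissues.

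The 2 IL-22-negative libraries held 18891674 and 29859062 UMIs in 8555 and 10231 barcodes, of which 8301 and 10099 were kept. Their plasma cells were deep, with a median of 11930.5 UMIs at 0 h (range 1414 to 25962) and 12515 at 12 h (1921 to 25027), and medians of 1871.5 and 1730.5 genes. B cells of the same libraries (at least 1 Ms4a1 UMI, at least 2 Cd79a UMIs and under 10 Jchain UMIs; 1590 and 1493 cells) had medians of 1797.5 and 1818 UMIs. The 2 libraries shared 116 barcodes; 2 of these were a plasma cell in 1 library and none in both.

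Levels of genes outside the immunoglobulin loci are given as CPM, UMIs per 1000000 non-immunoglobulin UMIs, since antibody transcripts took a large and uneven share of each cell. Plasma cell genes that the rule did not use were high in these cells, as a description of what was chosen. At 0 h they held Sec11c, a signal peptidase subunit, at 3808 CPM against 310 in B cells. Derl3, an ER-associated degradation factor, stood at 1111 CPM against 2.97. Tnfrsf17 (BCMA), the receptor for plasma cell survival signals, stood at 816 CPM against 0.890. The median cell held 243 Jchain, 4 Xbp1 and 82 Mzb1 UMIs at 0 h and 248, 4.5 and 69.5 at 12 h. The Jchain minimum separated the cells cleanly: 1 barcode at 0 h and 0 at 12 h met the other conditions with 5 to 9 Jchain UMIs, and 1 and 2 members held 10 to 19. The Xbp1 minimum did not: 18 and 13 barcodes stood just outside with 1 Xbp1 UMI, 10 and 11 with none, while 14 and 16 members stood just inside with 2.

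Plasma cells made up 0.699% (0.531 to 0.902) of kept barcodes at 0 h and 1.11% (0.914 to 1.33) at 12 h, a ratio of 1.59 (1.15 to 2.22). Over barcodes with at least 1000 UMIs alone the ratio was 1.33, with an interval of 0.960 to 1.86 that includes 1. B cells went the other way, from 19.2% to 14.8% of barcodes, a ratio of 0.772 (0.719 to 0.829), so that there were 3.65 plasma cells per 100 B cells at 0 h and 7.50 at 12 h. Shares of sorted cells depend on the sort and on every other cell type in it, and what moved them was not tested.

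The mix of antibody classes differed between the libraries in its share of IgG2b cells. Each cell was given the heavy chain constant gene with most of its UMIs, and in the median assigned cell that gene held 98.8% of heavy constant UMIs at 0 h and 100% at 12 h. At 0 h, 28 of 58 cells were Igha (48.3%) and 23 were Ighg2b (39.7%, 27.1 to 53.4), with 2 Ighg1, 2 Ighg2c and 3 cells left unassigned. At 12 h, 77 of 112 cells were Igha (68.8%), 12 Ighg2c (10.7%), 9 Ighg2b (8.04%, 3.74 to 14.7), 7 Ighm, 5 Ighg1 and 2 Ighg3. The share of IgG2b cells at 12 h was thus 0.203 (0.0825 to 0.455) of that at 0 h, and the intervals of the 2 libraries do not overlap. Without members that held a UMI of a T, NK or myeloid gene, which left 32 and 74 cells, this ratio was 0.378 and its interval, 0.117 to 1.19, includes 1. The share of IgA cells had a ratio of 1.42 (0.913 to 2.28), which also includes 1. Counted per kept barcode, IgA cells were 2.26 times (1.45 to 3.62) as frequent at 12 h and IgG2b cells 0.322 times (0.131 to 0.722), values that also carry the ratio of all plasma cells. No IgM cell was found among the 58 at 0 h, for which the exact interval reaches 6.16%. The summed UMIs moved likewise: Igha stood at 4526 and 7923 UMIs per 1000000 of all UMIs, Ighg2b at 6818 and 1273, Ighg2c at 234 and 1461, and Ighm at 44.5 and 667. Because the rule asks for Jchain, cells of a class that makes little of it may be missing from these shares.

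**Figure D1:**
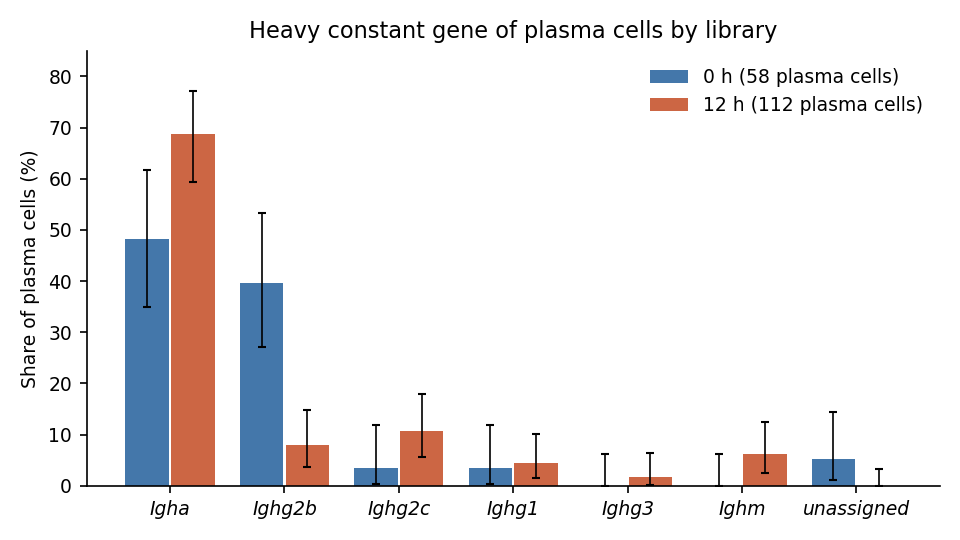
Share of plasma cells (y axis, %) whose heavy constant UMIs were mostly from each gene (x axis), in the IL-22-negative libraries at 0 h (blue, 58 cells) and 12 h (orange, 112 cells); bars on columns are exact 95% binomial intervals. Ighg2b held 39.7% of cells at 0 h and 8.04% at 12 h, and Igha 48.3% and 68.8%.

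Immunoglobulin genes took a median of 34.7% (30.1 to 40.4) of a plasma cell's UMIs at 0 h and 37.9% (34.7 to 42.5) at 12 h, against 1.98% and 1.66% of the summed UMIs of B cells. Single cells ran from 11.3% to 70.4% at 0 h and from 6.37% to 73.5% at 12 h, so the spread within a library was far wider than the difference between the medians. IgA and IgG cells overlapped throughout, with medians of 32.8% and 38.7% at 0 h and 37.7% and 39.1% at 12 h. The 7 IgM cells had a median of 56.3% (31.9 to 63.0). V segment genes held 94.5% of immunoglobulin UMIs at 0 h, 17.1 times the UMIs of the constant genes, and 93.7% at 12 h, although the labels name a kit that primes at the 3′ end of transcripts. In B cells V segments had 3.98 and 3.63 times the UMIs of constant genes. The constant genes are thus a thin part of the signal, with a median of 115 and 110.5 heavy constant UMIs a cell.

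**Figure D2:**
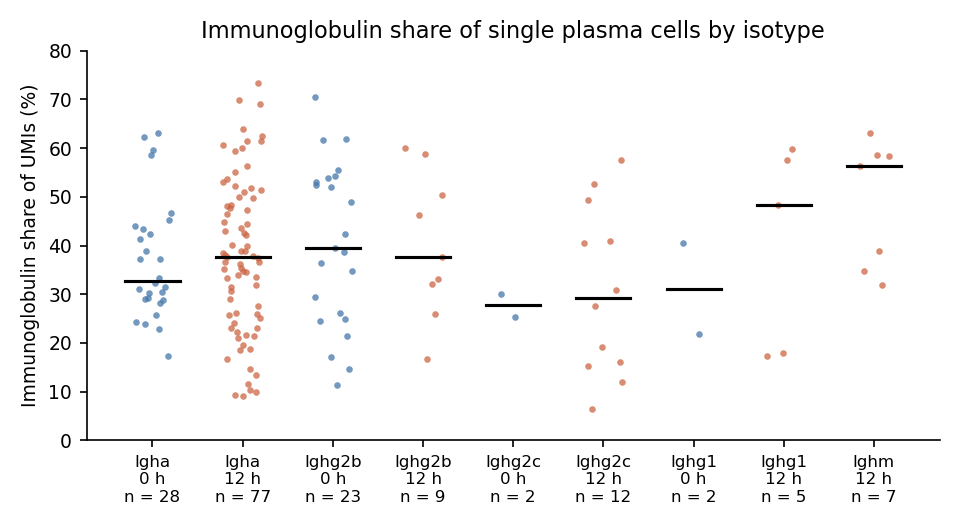
Immunoglobulin share of each plasma cell's UMIs (y axis, %) by heavy constant gene and library (x axis, with the number of cells); points are cells, blue at 0 h and orange at 12 h, and lines are medians. The classes overlap, and the 7 IgM cells have the highest median of those with 5 or more cells, 56.3%.

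The depth of the V segments let most cells be given 1 heavy and 1 light V segment: 57 of 58 at 0 h and all 112 at 12 h. The cells were diverse, with 52 and 103 distinct pairs of heavy and light segments. The heavy segment used most was Ighv1-9, in 5 and 12 cells, and next Ighv1-26, in 4 and 8. Light chains by V segment were kappa in 53 and 101 cells and lambda in 5 and 11. The light constant UMIs did not always follow: 12 of the 53 and 15 of the 101 cells with a kappa V segment had more Iglc than Igkc UMIs, so the V segment is the one used here. Cells that shared both segments and the class numbered 8 at 0 h, in 3 sets, and 15 at 12 h, in 7 sets. All 3 sets at 0 h were Ighg2b: Ighv1-22 with Igkv6-23 in 3 cells, Ighv1-55 with Igkv2-109 in 3, and Ighv1-9 with Igkv1-110 in 2. The 23 IgG2b cells of that library therefore held 18 distinct pairs, while its 27 IgA cells with an assigned heavy segment held 27. At 12 h the largest set was Igha, Ighv1-39 with Igkv6-23 in 3 cells. One of the pairs, Ighv1-55 with Igkv2-109, was found again in 1 Ighg2b cell at 12 h, and 5 pairs in all were seen in both libraries. Sharing V segments does not show that cells are a clone, since the junctions were not read.

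Plasma cells also carry an enlarged machinery of antibody secretion. Folding chaperones of the ER are switched on by the unfolded protein response, whose factors ATF6 and XBP1 act with NF-Y at the ER stress response element (ERSE). Its letters, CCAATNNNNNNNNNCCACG, were searched on both strands of the RefSeq promoter windows of build GRCm38.p6, each 300 bases from 250 before to 50 after a gene's start. They were present in 7 of the 22 genes of the unfolded protein response list that had a window (31.8%) and in 2 of 17 plasma cell identity genes, against 37 of all 27025 genes (0.137%). The 7 were Hspa5, Hsp90b1, Pdia6, Calr, Canx, Dnajc3 and Syvn1, and the 2 Derl3 and Creld2. None of the 16 translocon, 8 oligosaccharyl transferase or 17 ER-to-Golgi genes with a window held it. The letters of the unfolded protein response element (UPRE), TGACGTGG, were searched likewise. They were in 3 of the 17 ER-to-Golgi genes (17.6%) and 2 of the 17 identity genes, against 0.714% of all genes. None of the 22 unfolded protein response, 16 translocon or 8 oligosaccharyl transferase genes held the UPRE. The windows of 5 genes read out below are shown 5′ to 3′ along the gene, with each ERSE match in capitals. They lie at chr2:34771840-34772139 (plus strand, Hspa5), chr10:86705395-86705694 (minus, Hsp90b1), chr8:84846882-84847181 (minus, Calr), chr10:75893148-75893447 (plus, Derl3) and chr15:88819396-88819695 (plus, Creld2).
Hspa5: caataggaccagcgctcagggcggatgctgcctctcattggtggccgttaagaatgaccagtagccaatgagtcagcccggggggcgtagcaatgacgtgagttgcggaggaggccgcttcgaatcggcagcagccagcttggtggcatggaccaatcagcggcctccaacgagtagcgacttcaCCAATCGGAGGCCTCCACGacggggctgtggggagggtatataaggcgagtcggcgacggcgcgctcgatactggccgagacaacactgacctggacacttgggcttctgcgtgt
Hsp90b1: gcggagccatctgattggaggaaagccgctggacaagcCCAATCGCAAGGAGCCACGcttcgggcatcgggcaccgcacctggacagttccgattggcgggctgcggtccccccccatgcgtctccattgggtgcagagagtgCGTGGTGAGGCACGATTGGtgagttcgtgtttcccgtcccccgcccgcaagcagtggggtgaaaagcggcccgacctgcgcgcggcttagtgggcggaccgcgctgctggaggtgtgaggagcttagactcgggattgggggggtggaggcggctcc
Calr: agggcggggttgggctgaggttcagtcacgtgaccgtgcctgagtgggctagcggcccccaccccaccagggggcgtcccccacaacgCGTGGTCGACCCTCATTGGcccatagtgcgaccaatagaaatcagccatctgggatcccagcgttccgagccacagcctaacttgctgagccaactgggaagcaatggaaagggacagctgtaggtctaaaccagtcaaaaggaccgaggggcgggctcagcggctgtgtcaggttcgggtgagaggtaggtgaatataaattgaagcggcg
Derl3: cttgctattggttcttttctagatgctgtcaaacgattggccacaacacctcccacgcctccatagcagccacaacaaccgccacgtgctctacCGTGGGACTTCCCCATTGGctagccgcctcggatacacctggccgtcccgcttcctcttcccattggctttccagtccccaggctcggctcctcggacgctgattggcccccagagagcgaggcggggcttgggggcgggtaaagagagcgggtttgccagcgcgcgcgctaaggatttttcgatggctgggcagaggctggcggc
Creld2: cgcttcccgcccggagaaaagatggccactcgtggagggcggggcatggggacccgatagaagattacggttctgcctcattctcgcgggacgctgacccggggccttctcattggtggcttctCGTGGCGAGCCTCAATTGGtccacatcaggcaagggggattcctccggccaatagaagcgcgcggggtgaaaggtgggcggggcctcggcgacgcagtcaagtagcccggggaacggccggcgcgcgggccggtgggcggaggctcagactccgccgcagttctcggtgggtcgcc
The match runs from 65 to 47 bases before the start in Hspa5, on the strand of the gene. In Hsp90b1 there are 2 matches, and in Calr, Derl3 and Creld2 the letters lie on the opposite strand. A match describes the sequence and is not a measured binding site.

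These genes were high in plasma cells at both times. Hsp90b1 (GRP94), an ER chaperone, stood at 13186 CPM at 0 h and 13723 at 12 h, against 471 in B cells at 0 h. Creld2, an ER disulphide isomerase, stood at 1435 and 2129, a ratio of 1.48 (1.35 to 1.63). Hspa5 (BiP), the ER Hsp70, stood at 2858 and 1931 CPM, a ratio of 0.676 (0.627 to 0.728). Calr, a lectin chaperone, kept 1087 and 1099 CPM, and Derl3 1111 and 1004. Genes with the element in common thus stood on both sides of 1.

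Between 12 h and 0 h, 3446 genes outside the immunoglobulin loci had at least 30 UMIs over both sums. Of these, 420 (12.2%) were at least 1.5-fold higher at 12 h and 312 (9.05%) at least 1.5-fold lower, and the median log2 ratio of all was 0.01. Of the 25 unfolded protein response genes, 0 were higher and 1 was lower, Hyou1, an ER chaperone (0.620), and the summed list had a ratio of 0.962 (0.943 to 0.982). That ratio pools all antibody classes, whose mix differed: the summed list had 1.19 within IgA cells and 0.905 within IgG cells. Translocon and signal peptidase genes, which carry new chains into the ER, had 1 of 22 higher and 0 lower. Oligosaccharyl transferase genes, which add sugars to them, had 0 of 9 in either direction. ER-to-Golgi genes had 1 of 20 in each. All 4 lists had fewer genes past the fold than the 12.2% and 9.05% of all genes. Genes of few UMIs pass the fold more easily by counting error, and the lists were not matched to all genes by UMI count. The lower shares therefore do not show that these lists were steadier than other genes.

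Cell cycle genes stood largely on 1 side. Of 17 measured, 14 were at least 1.5-fold higher at 12 h and 0 lower (median log2 ratio 1.32). The summed list went from 1212 to 2722 CPM, a ratio of 2.25 (2.04 to 2.48), while in B cells it was 1.21. Rrm2, the small subunit of the ribonucleotide reductase that makes deoxynucleotides, went from 2 to 63 UMIs. Tyms, the thymidylate synthase, went from 6 to 58 UMIs, a ratio of 4.65 (2.01 to 13.2). Pclaf, a PCNA partner in replication, stood at 106 and 368 CPM, a ratio of 3.49 (2.54 to 4.89). Birc5 (survivin), needed in mitosis, stood at 50.4 and 140, a ratio of 2.77 (1.73 to 4.64). Mki67, a marker of cycling cells, had a ratio of 1.56 (1.04 to 2.40). It was seen in 16 of 58 cells (27.6%) and 33 of 112 (29.5%), against 1.76% and 1.34% of B cells, whose UMI counts are much lower.

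The same RNA was spread unevenly over the cells. The median cell held 4.36 cell cycle UMIs per 10000 non-immunoglobulin UMIs at 0 h and 4.68 at 12 h. The difference lay in a tail: 2 of 58 cells (3.45%, 0.420 to 11.9) at 0 h and 14 of 112 (12.5%, 7.01 to 20.1) at 12 h held 50 or more, a level set after the values were seen, and 7 and 8 cells lay near it, between 25 and 75. These 2 and 14 cells held 26.9% and 80.3% of the list's UMIs. Without them the summed ratio was 0.767 (0.667 to 0.881) and 1 of 8 measured genes was higher. The cells left out were chosen by this same list, so a fall of its ratio follows from the choice. The ratio of the 2 shares is 3.63 with an interval of 0.833 to 32.9, which includes 1. The 14 cells at 12 h were 9 IgA and 5 IgG cells with 14 distinct V pairs. In 1 of these IgG cells, the assigned heavy and light segments held only 51.8% and 57.6% of the UMIs of their loci. Immunoglobulin took a median of 17.6% of their UMIs against 40.0% in the other cells of the library, and they were larger, with medians of 17683 and 11606.5 UMIs.

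**Figure D3:**
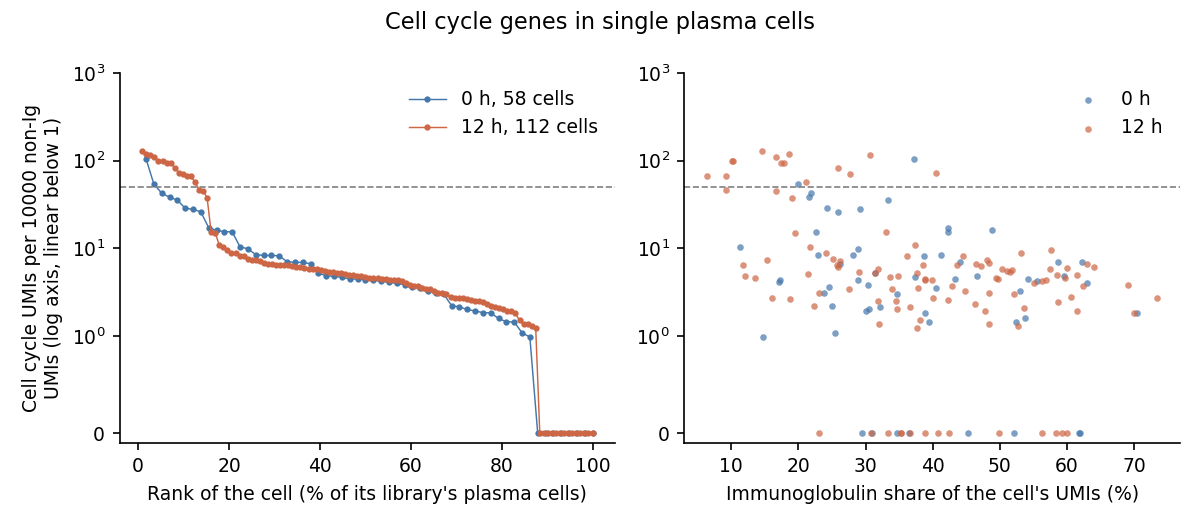
Cell cycle list in single plasma cells, in UMIs per 10000 non-immunoglobulin (non-Ig) UMIs (y axes, log scale, linear below 1), against the cell's rank in its library (left) and the immunoglobulin share of its UMIs (right, %), at 0 h (blue) and 12 h (orange); the dashed line is 50. The curves run together except in the top cells, 2 of 58 and 14 of 112 above the line, and most of those 14 have a low immunoglobulin share.

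The 12 highest ratios among genes with at least 100 CPM and at least 50 UMIs in the higher sum held 4 histone genes, which are copied with DNA. H2afx, a histone variant of the damage response, went from 31.2 to 173 CPM, a ratio of 5.55 (3.15 to 10.7), and Hist1h2ap from 379 to 2061, a ratio of 5.44 (4.62 to 6.44). Hist1h2ao and Hist1h2ae, at 3.29 and 2.25, share near-identical copies with other histone genes, as does Hist1h2ap, so their reads may be split uncertainly. Tubulins Tuba1b (4.26) and Tubb5 (2.40), the microtubule regulator Stmn1 (2.79) and the nucleotide enzyme Dut (2.95) were also among them. Without the 2 and 14 cells of high cell cycle level, none of these genes kept a 1.5-fold ratio above 1: H2afx had 1.02, Hist1h2ap 1.22, Tuba1b 1.43, Dut 1.22 and Tubb5 1.05, each with an interval that includes 1, and Hist1h2ao, Hist1h2ae and Stmn1 stood below 1. Rgcc, a regulator of the cell cycle, stood apart from these: its ratio was 3.73 (2.25 to 6.60), from 17 to 132 UMIs, and it was seen in 46 of 112 cells at 12 h with at most 12 UMIs in any. Its ratio ran from 2.65 to 6.64 over all 18 alternatives, including that without the cycling cells. Within IgA cells the Rgcc ratio was 2.67 (1.32 to 6.10) and within IgG cells 2.89 (1.30 to 7.28), both under that of all cells. The 12 h cells also included 7 IgM cells, a class not found at 0 h, and their part in the pooled ratio was not tested. Fcer1g, an adaptor of Fc receptors in myeloid and NK cells, had a ratio of 2.35, and 76 of its 122 UMIs at 12 h lay in cells with a T, NK or myeloid UMI. Without those cells its ratio was 0.964.

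The gene furthest down was Ly6c2, a GPI-anchored surface protein known on plasma cells and monocytes. It went from 2707 to 886 CPM, a ratio of 0.327 (0.298 to 0.359), and was seen in 44 of 58 and 73 of 112 cells. Within IgA cells the ratio was 0.590 (0.508 to 0.685) and within IgG cells 0.270 (0.235 to 0.308), so it was lower in both classes. Next came Pde4b, which breaks down cyclic AMP, at 0.449 (0.306 to 0.657) and Hspa13, a microsomal chaperone, at 0.511 (0.338 to 0.774). The others were Cyfip2, Rasa3, Ubl7, Fut8, Trp53inp1, Akap9, H2-DMa, Pafah1b3 and Hsd17b10, at 0.530 to 0.581 with 46 to 183 UMIs at 0 h. Not all of these held in both classes. Pde4b had 0.438 in IgA and 0.453 in IgG cells. Hspa13 had 0.915 (0.499 to 1.75) in IgA and 0.257 (0.112 to 0.543) in IgG cells, and Fut8 0.926 (0.496 to 1.82) and 0.434 (0.254 to 0.726). H2-DMa went the other way, with 0.417 (0.240 to 0.729) in IgA and 1.03 (0.515 to 2.09) in IgG cells.

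Of 18 measured plasma cell identity genes, 0 were 1.5-fold higher and 4 lower, beside 9.05% lower of all genes. Irf4, the transcription factor that drives the plasma cell fate, went from 192 to 114 CPM, a ratio of 0.595 (0.439 to 0.809). Tnfrsf17 went from 816 to 517, a ratio of 0.634 (0.549 to 0.732), and Trp53inp1, a stress-induced autophagy factor, had 0.549 (0.394 to 0.765). Sdc1 (CD138), the surface proteoglycan used to sort plasma cells, had only 28 and 35 UMIs and a ratio of 0.601 whose interval, 0.355 to 1.03, includes 1. Prdm1 (Blimp-1), the master repressor of the B cell programme, had 1.10 (0.692 to 1.81). The summed identity list had a ratio of 1.02 (0.988 to 1.06). Among 9 measured survival and niche receptors 0 were higher and 2 lower, Tnfrsf17 and Bcl2l11 (BIM, a death factor), and the summed ratio was 0.772 (0.708 to 0.843). Redox genes of disulphide bonding had 1 of 6 higher, Ero1l with 6 and 35 UMIs, and 1 lower, its relative Ero1lb with 38 and 46.

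Glycolysis and hypoxia genes had 4 of 10 higher and 0 lower, beside 12.2% and 9.05% of all genes, with a summed ratio of 1.27 (1.20 to 1.34). Ldha, lactate dehydrogenase, had 1.91 (1.40 to 2.67), Eno1, enolase, 1.66 (1.21 to 2.33), and Gapdh 1.27 (1.19 to 1.35). The summed ratio in B cells was 1.26. Oxidative phosphorylation genes had 1 of 22 higher and 0 lower. Interferon response genes had 1 of 11 in each direction, near the shares of all genes. The higher one was Isg15, a ubiquitin-like effector, at 2.17 (1.61 to 2.97), of whose 244 UMIs at 12 h 145 lay in 1 cell. Without the top cell of each library its ratio was 1.44, and in B cells it was 3.06. MHC class II genes, which present antigen and fade as B cells become plasma cells, had 0 of 8 higher and 1 lower, H2-DMa, also near those shares.

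**Figure D4:**
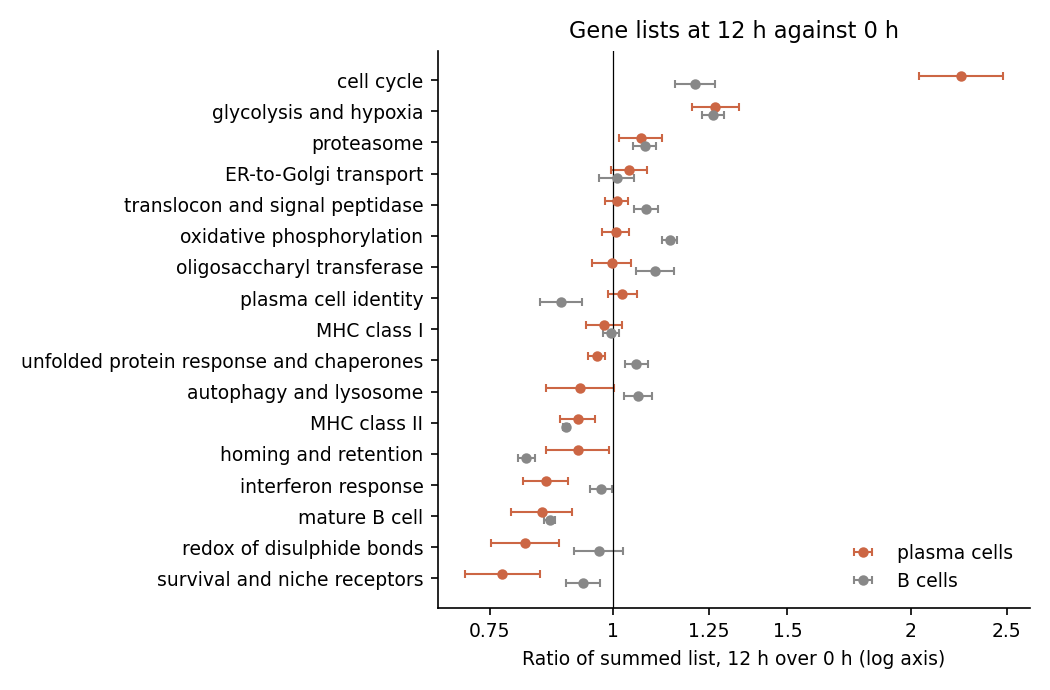
Ratio of the summed list at 12 h over 0 h (x axis, log scale) for 17 gene lists in plasma cells (orange) and B cells (grey) of the IL-22-negative libraries; bars are 95% counting intervals. The cell cycle list stands at 2.25 in plasma cells and 1.21 in B cells, and the secretory lists stand close to 1 with all antibody classes pooled.

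Since the mix of classes differed between the libraries, IgA cells were set against IgG cells within each library, 28 against 27 at 0 h and 77 against 28 at 12 h. The IgG cells were mostly Ighg2b at 0 h and of 4 subclasses at 12 h. Of 1488 genes measured in both, 7 (0.470%) were at least 2-fold higher in IgA cells in both libraries and 6 (0.403%) at least 2-fold higher in IgG cells in both.

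Of the 8 genes named as higher in IgA cells, Tnfrsf17, Ccr10, Lgals3, Anxa2 and Crip1 were past 2-fold in both libraries, and Lgals1, S100a11 and Pycard were not. Tnfrsf17 stood at 1100 CPM in IgA and 316 in IgG cells at 0 h, a ratio of 3.48 (2.60 to 4.72), and at 687 and 150 at 12 h, a ratio of 4.56 (3.26 to 6.58). Ccr10, the chemokine receptor that draws IgA plasma cells to mucosal epithelium, had ratios of 3.44 (2.06 to 6.01) and 2.99 (2.04 to 4.55). It was seen in 24 of 28 IgA and 7 of 27 IgG cells at 0 h. At 12 h it was seen in 62 of 77 IgA and 13 of 28 IgG cells. By subclass, 6 of 23 Ighg2b cells held it at 0 h, and 3 of 9 Ighg2b and 8 of 12 Ighg2c cells at 12 h. Lgals3, the lectin galectin-3, had 62 UMIs in IgA and 1 in IgG cells at 0 h, and 177 and 10 at 12 h, but only 9 of 28 and 31 of 77 IgA cells held any. Lgals1 (galectin-1) had 1.89 and 2.09. Anxa2, a membrane-binding annexin, had 2.41 and 6.21, and S100a11, a calcium-binding partner of annexins, 1.96 and 1.85. Crip1, a LIM-domain protein, had 4.16 and 2.17. Pycard, the inflammasome adaptor ASC, had 1.81 and 2.64.

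Of the 8 genes named as higher in IgG cells, Slpi, Ly6a and Pon3 were past 2-fold in both libraries. Slpi is the secretory leukocyte protease inhibitor. It stood at 901 CPM in IgA and 7609 in IgG cells at 0 h, 8.44-fold (7.27 to 9.84) higher in IgG, and at 622 and 20501 at 12 h, 32.9-fold (29.6 to 36.7) higher. Any Slpi was seen in 13 of 28 IgA and 22 of 27 IgG cells at 0 h, and in 23 of 77 and 25 of 28 at 12 h. The level ran widely among IgG cells, with a median of 24 and a range of 0 to 406 UMIs in the 23 Ighg2b cells at 0 h. At 12 h the 5 Ighg1 cells ran from 23 to 918, the 12 Ighg2c cells from 0 to 465 and the 9 Ighg2b cells from 1 to 851, so all subclasses with 5 or more cells held it. It was not particular to IgG: the 7 Ighm cells at 12 h stood at 13455 CPM. Of these, 5 held Slpi, with a median of 4 and a range of 0 to 330 UMIs over the 7. The next highest Ighm cell held 38, so the level of 13455 CPM came mostly from 1 cell. The 3 cells with Ighv1-55 and Igkv2-109 at 0 h had 406, 7 and 28 Slpi UMIs. Over all plasma cells Slpi had a ratio of 1.75 (1.65 to 1.85) between 12 h and 0 h, but 0.690 (0.580 to 0.824) within IgA and 2.69 (2.54 to 2.86) within IgG cells.

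Ly6a (Sca-1), an interferon-induced surface protein, was 5.35-fold higher in IgG cells at 0 h and 5.13-fold at 12 h, and was seen in all 23 Ighg2b cells at 0 h and all 9 at 12 h. The 7 Ighm cells at 12 h also held it, at 3158 CPM and in 6 cells. Ly6c2, a relative of Ly6a, was 3.43-fold and 1.57-fold higher in IgG cells. Without the top cell of each class the 12 h ratio of IgA over IgG was 0.978, so that difference rested on 1 cell. Pon3, a lactone-cleaving enzyme, had 6 UMIs in IgA and 57 in IgG cells at 0 h and 55 and 48 at 12 h. Scaled, these were 27.0 and 311 CPM at 0 h and 93.0 and 195 at 12 h, 2.10-fold (1.39 to 3.15) higher in IgG cells at 12 h. Dnajc7, a cochaperone, Hnrnpu, a nuclear RNA-binding protein, Ctss, the cathepsin that trims invariant chain, and Cd81, a tetraspanin of the B cell coreceptor, had ratios of IgA over IgG of 0.437 to 0.562 at 0 h and 0.555 to 0.639 at 12 h.

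**Figure D5:**
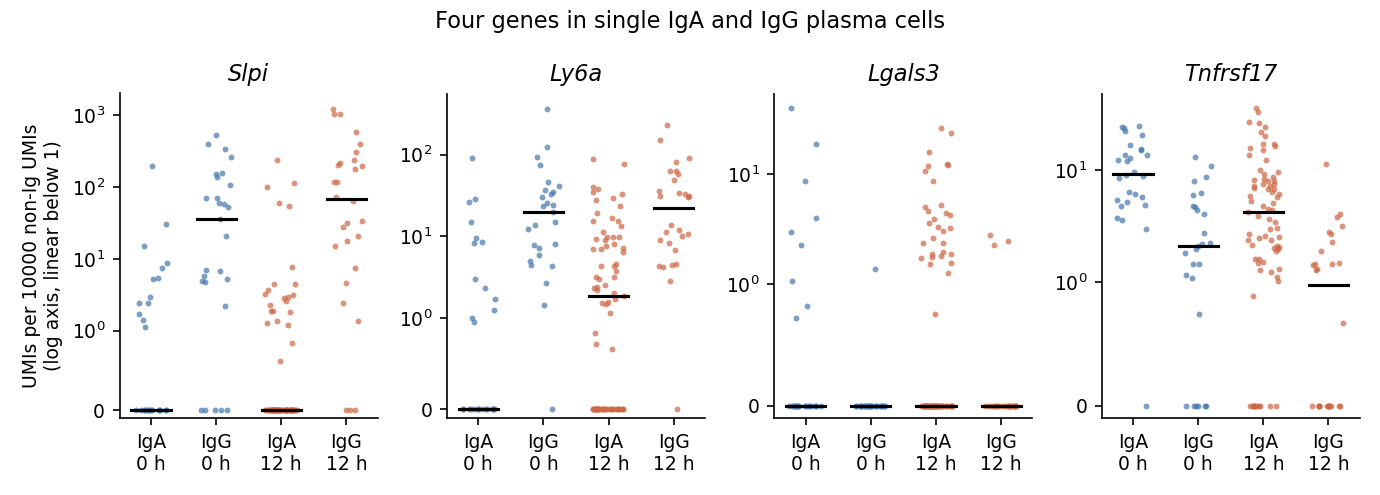
Slpi, Ly6a, Lgals3 and Tnfrsf17 in single IgA and IgG plasma cells at 0 h (blue) and 12 h (orange), in UMIs per 10000 non-immunoglobulin (non-Ig) UMIs (y axes, log scale, linear below 1); points are cells and lines medians. Slpi and Ly6a are higher in IgG cells and Tnfrsf17 in IgA cells at both times, and most cells of all groups hold no Lgals3.

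Further surface genes were measured at low counts. Epcam, an adhesion molecule of epithelia that mucosal plasma cells also carry, had 41 and 74 UMIs, 98.4 and 85.4 CPM, while the keratins Krt8, Krt19, Krt7 and Krt20 and the cadherin Cdh1 were at 0 in all cells. Cd28, a costimulatory receptor that supports long-lived plasma cells, had 56 and 86 UMIs, and Tigit, an inhibitory receptor, 54 and 153. Such counts are raw, out of 416723 non-immunoglobulin UMIs at 0 h and 866528 at 12 h. Of 11 measured homing and retention genes, 0 were higher and 1 was lower at 12 h, a share near the 9.05% of all genes. It was Cxcr3, an inflammatory chemokine receptor, with 27 and 28 UMIs and a ratio of 0.499 (0.283 to 0.879). Klf2, which controls trafficking receptors, kept 1205 and 1191 CPM.

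RNA of other cell types was low. A UMI of Cd3d, Cd3e, Cd3g, Lyz2, S100a8 or Ncr1 was seen in 26 of 58 (44.8%) and 38 of 112 (33.9%) plasma cells, near the 40.4% and 36.6% of B cells, which have far fewer UMIs each. T cell genes had 154 and 304 UMIs in all, with 12 of 12 list genes seen at 12 h and 0 to 41 UMIs a cell. Monocyte and macrophage genes had 21 and 153, of which 106 lay in 1 cell at 12 h, and Csf1r, Adgre1, C1qa, C1qc, Clec4f and Vsig4 were at 0. Haemoglobin genes were at 0 and hepatocyte genes at 2 and 8 UMIs. What these transcripts contributed to the ratios above was not tested beyond leaving such cells out.

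The IL-22-positive libraries held 1 plasma cell in 289 barcodes at 0 h (0.346%) and 0 in 1350 at 12 h, for which the exact interval reaches 0.273%. That cell was an Igha cell with a lambda light chain and 14623 UMIs, among them 101 Jchain, 10 Xbp1, 72 Mzb1, 5 Ccr10, 6 Tnfrsf17 and 1 Slpi. It held no Il22 UMI, nor did any of the 170 plasma cells of the IL-22-negative libraries.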

How the data were processed

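The authors deposited raw UMI counts per gene and barcode, written by Cell Ranger 4.0.0 per the file headers, while the submitters' processing notes name version 3.0.1 and the mm10 build. The deposited barcodes were used as they are; what filter made them is not given in the sources used here. Members and gene lists were chosen with earlier results of these data known. Counts were summed over the members of a library with Python 3.11.15 and scipy 1.17.1; ratios carry exact conditional intervals and shares exact Clopper-Pearson intervals, at 95%. A gene was measured with at least 30 UMIs over both sums, and a sum of 0 was set to 3 UMIs for a log2 ratio. The scripts were tested on simulated data. Isotypes needed at least 10 UMIs and 50% of heavy constant UMIs, V segments at least 5 UMIs and 50% of their locus.

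Genes named were the 12 highest and 12 lowest ratios with at least 100 CPM (UMIs per 1000000 non-immunoglobulin UMIs) and at least 50 UMIs in the higher sum, and for IgA against IgG the 8 highest and 8 lowest by the smaller log2 ratio, besides the genes of the 35 lists. Mitochondrial, ribosomal, V segment, sex-linked, hepatocyte and erythroid genes were left out, as was any gene whose ratio came within 1.25-fold of 1 without its top cell; this left out Lyz2, 88 of whose 99 UMIs at 12 h lay in 1 cell. Other list genes named were picked after their values were seen. No isotype besides Igha had 15 members in both libraries, so IgA was set against all IgG cells, a choice made after the isotypes were seen. Scrublet (scanpy 1.11.5) called 4.49% of kept barcodes at 0 h; at 12 h its own threshold called 0.0495%, so the threshold of the 0 h library was used, which called 4.01%. No plasma cell was among the calls in either library, and doublets were not removed. Doublets formed by plasma cells alone were not tested for beyond these calls. A member at 12 h, counted as Ighg2c, held 202 Ighg2c and 173 Ighg1 UMIs, out of 25027 UMIs in all. Its top heavy and light V segments held only 51.8% and 57.6% of their loci. It was among the cells of high cell cycle level, and whether it was a doublet was not tested further. Gene positions are from GENCODE on GRCm38.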

Additional observations from a re-analysis of the deposited data

Results flagged for a closer look

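A set of 4 genes moved in opposite directions in IgA and IgG cells between 12 h and 0 h, by more than 1.5-fold each and beyond counting error. The difference between the classes was not tested, with 1 library a time. Isg15 had a ratio of 4.63 (2.86 to 7.95) in IgA and 0.469 (0.262 to 0.822) in IgG cells. Of the 222 UMIs of IgA cells at 12 h, 145 lay in 1 cell. Of the IgG cells at 0 h, 1 held 21 Isg15 UMIs and the next 8. The opposite directions of Isg15 may thus rest on single cells, and the IgG ratio without that cell was not tested. Pon3 had 3.44 (1.48 to 9.78) in IgA cells, from 6 to 55 UMIs, and 0.628 (0.419 to 0.939) in IgG cells, with at most 11 UMIs in any cell. Ccl5, a chemokine of T and NK cells, had 3.19 (2.18 to 4.82) in IgA and 0.437 (0.310 to 0.610) in IgG cells, and 258 of its 313 UMIs at 12 h lay in cells with a T, NK or myeloid UMI. Ccl4, of the same cells, had 5.50 (1.76 to 27.7) and 0.298 (0.0948 to 0.814).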

How the results depend on the processing

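No paired analysis was possible because each group was 1 library. The share of plasma cells, the immunoglobulin share, the isotype shares, the IgA and IgG counts and the V segment counts stayed within their own intervals, or within 1.5 times, under every alternative run for them. The interval itself came to include 1 for the share of plasma cells over barcodes of at least 1000 UMIs (1.33, 0.960 to 1.86) and for the IgG2b share without cells holding other types' UMIs (0.378, 0.117 to 1.19). The counts of genes past the fold moved with the count minimum, the depth, the fold, the weighting of cells and the cells used. They were 420 higher and 312 lower as reported, 85 and 43 with at least 100 UMIs, 1507 and 4039 with no filter, 99 and 69 with cells thinned to 1000 UMIs, and 145 and 64 at 2-fold. Lower genes numbered 480 with each cell weighted alike and 182 in IgA cells, and IgG cells gave 214 and 191. Cell cycle genes higher were 14 of 17 as reported, 9 of 15 in IgA cells, 9 of 9 in IgG cells, 7 of 8 with at least 100 UMIs and 1 of 1 thinned. The summed list had 2.01 with at least 1 Xbp1 UMI, 2.82 without cells holding other types' UMIs, 1.58 with cells weighted alike, 1.5 thinned, 1.69 in IgA cells, 4.16 in IgG cells and 2.85 without each gene's top cell. Without the cells at 50 per 10000 or more, chosen after seeing the data as was the IgG fit, 1 cell cycle gene was higher, the sum reversed to 0.767, and Pclaf (0.610), Hist1h2ao (0.897), Stmn1 (0.866), Birc5 (0.422) and Hist1h2ae (0.563) reversed. H2afx (1.02), Hist1h2ap (1.22), Tuba1b (1.43), Dut (1.22) and Tubb5 (1.05) then no longer passed the fold. Fcer1g reversed to 0.964 without cells holding other types' UMIs, Ubl7 to 1.87 thinned, and H2-DMa to 1.03 in IgG cells. The other scalings moved the median log2 ratio by at most 0.0712. Depth limits genes under 30 UMIs, which were not compared.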
